A study of Mus musculus with 12 samples.

Results

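The genes described here encode 9 liver enzymes of the methionine cycle, of transsulfuration and of the path from cysteine to taurine: Mat1a, Gnmt, Pemt, Ahcy, Bhmt, Cbs, Cth, Cdo1 and Csad. They were chosen by symbol, all 9 had a row in the deposited expression table of 57010 genes, and all 9 were among the 9980 genes tested. Liver RNA was sequenced from male C57BL/6J mice without a genetic change, 6 weeks old when the study began. The 6 control livers came from untreated mice, and the 6 livers called selenium here came from mice gavaged each day with Aspergillus oryzae A02, a food fungus grown with selenium, at 0.5 mg selenium per kg in saline; both groups ate a normal diet. The protocol speaks of 10 mice per group, the design text of 8 weeks of feeding and the sample descriptions of 14 weeks; whether controls were gavaged with saline is not stated. The fungus came with its selenium in every dose, and the effects of each cannot be told apart.

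In the methionine cycle, methionine is activated to S-adenosylmethionine, the methyl group is handed to an acceptor, and the homocysteine that remains is either methylated back to methionine or passed into transsulfuration, which turns it into cysteine by way of cystathionine. Cysteine is then used for protein and glutathione or oxidised to sulfate and taurine, and liver holds the largest part of this traffic. Selenomethionine, a common form of selenium in fungi and yeasts grown with the element, is carried through the same cycle and the same transsulfuration steps, which yield selenocysteine.

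The samples are labelled as liver tissue and, under cell type, as hepatocytes. Values are in TPM, a level per transcript length on a fixed total per library, so the depth behind each is unknown. On a fixed total, a larger share of 1 gene lowers the TPM of the others. Mup9 was the highest gene in every library but control 5. It stood at 107192 to 177358 TPM in those controls and at 131780 to 229589 TPM in the selenium livers. In control 5 the highest was mt-Atp8, at 92057 TPM. The part of these genes in the enzymes' values was not tested. Alb, the albumin gene of hepatocytes, was at 17790 ± 5705 TPM in the control livers and 19950 ± 2544 TPM in the selenium livers (mean ± SD, n = 6 per group throughout). Summed TPM of 7 hepatocyte markers, Alb among them, spanned 28830 to 45600 in the control livers and 27740 to 42210 in the selenium livers. Summed TPM of 9 Kupffer cell markers spanned 76.7 to 169.8 (control livers) and 67.7 to 298.5 (selenium livers), that of 6 cholangiocyte markers 25.1 to 269.4 and 16.0 to 132.7, and that of 7 stellate cell markers 35.2 to 77.8 and 22.2 to 53.0. For 4 erythroid markers the ranges were 256.7 to 2355 and 230.6 to 853.9, for 6 lymphocyte markers 2.35 to 4.17 and 1.15 to 3.04, for 7 sinusoidal endothelial markers 19.2 to 46.3 and 17.2 to 40.9, and for 4 pancreatic acinar markers 0 to 0.0800 and 0 to 8.73. No marker of these lists was at 0 in all 12 libraries, but all 6 lymphocyte and all 4 acinar markers were under 1 TPM in 7 or more. So were 4 of 6 cholangiocyte, 3 of 7 sinusoidal endothelial and 3 of 7 stellate markers. Most of the cholangiocyte sums, at means of 71.5 and 39.5 TPM, was Spp1, at 67.79 ± 97.15 (control) and 37.24 ± 45.09 TPM (selenium). The part of these cells in the results was not tested. In whole liver, fewer cells of a type and less RNA per cell cannot be told apart. In 4 livers, controls 5 and 6 and selenium 1 and 5, the clock gene Dbp stood at 15.7 to 53.6 TPM, against 0.720 to 1.44 TPM in the other 8, so the change of each enzyme among those 8 is given below. No label states the hour of sampling.

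The enzymes spanned a wide range of levels. In controls the order by mean TPM was Bhmt (1773), Cdo1 (1367), Mat1a (475), Gnmt (427), Cth (162), Pemt (158), Cbs (112), Csad (55.2) and Ahcy (44.3). Bhmt lay above Cdo1 in 5 of 6 control livers, and the lowest Cdo1 value lay above the highest Mat1a value. Mat1a and Gnmt did not differ beyond their spread, Mat1a being the higher in 3 of 6, and neither did Cth and Pemt, with Cth the higher in 4 of 6. With selenium Bhmt and Cdo1 again led, followed by Gnmt (658) and Mat1a (606), then Pemt (165), Cbs (145), Cth (115), Csad (52.0) and Ahcy (32.1). Cth was thus above Cbs in controls and below it with selenium. Together the 9 held 4573 ± 242 TPM in a control liver and 4093 ± 499 TPM in a selenium liver, or 0.457% and 0.409% of all TPM. Bhmt ranked 67 among the tested genes by mean TPM over the 12 libraries, and Ahcy, the lowest of the 9, ranked 1414.

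Set against the controls, the 9 enzymes did not move in 1 direction. Gnmt, Cbs and Mat1a averaged higher with selenium, by 54.2%, 29.1% and 27.5%, while Cth, Ahcy, Cdo1 and Bhmt averaged lower, by 28.9%, 27.6%, 27.1% and 25.3%, and Pemt and Csad lay close to the control mean, at 4.57% higher and 5.73% lower. None of the 9 passed limma's test at a Benjamini-Hochberg adjusted p of 0.05 over all tested genes, a threshold passed by 0.331% of the 9980 (0.0200% higher and 0.311% lower). At an unadjusted p under 0.05 there were 6 of the 9, 2 higher and 4 lower, beside 18.5% of all tested genes (7.01% higher and 11.4% lower). The enzymes were chosen with earlier results of these data known. Some also varied together (Cth and Cdo1, r = 0.94 with each group's mean removed), and the 9 as a set were not tested. In an exact permutation test per gene, 4 of the 9 had an unadjusted p under 0.05, beside 17.5% of all, and 0 an adjusted p under 0.05, beside 0.00%. The smallest p this permutation test allows, 0.00217, came to 0.133 after adjustment, so its adjusted count could hardly exceed 0. Groups did not overlap for 1 of the 9, Cth, where selenium was lower, and for 1.63% of all tested genes (0.160% higher and 1.47% lower). The median log2 change of the 9 was -0.02, and that of all tested genes was -0.03. With median-of-ratios scaling these medians were 0.06 and 0.04, and the change of each enzyme was higher. Bhmt then changed by -0.33 and Ahcy by -0.34 (limma adjusted p = 0.199 and 0.344). Gnmt changed by 0.79 and Mat1a by 0.45 (limma adjusted p = 0.0726 and 0.173). In the authors' deposited table, adjusted p-values under 0.05 were given for 2 of the 9, Gnmt and Cth, Gnmt higher and Cth lower, and for 9.87% of the same tested genes (6.97% higher and 2.90% lower). The authors' log2 changes lay above those from mean TPM for all 9, by 0.04 (Mat1a) to 0.19 (Cth).

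**Figure D1:**
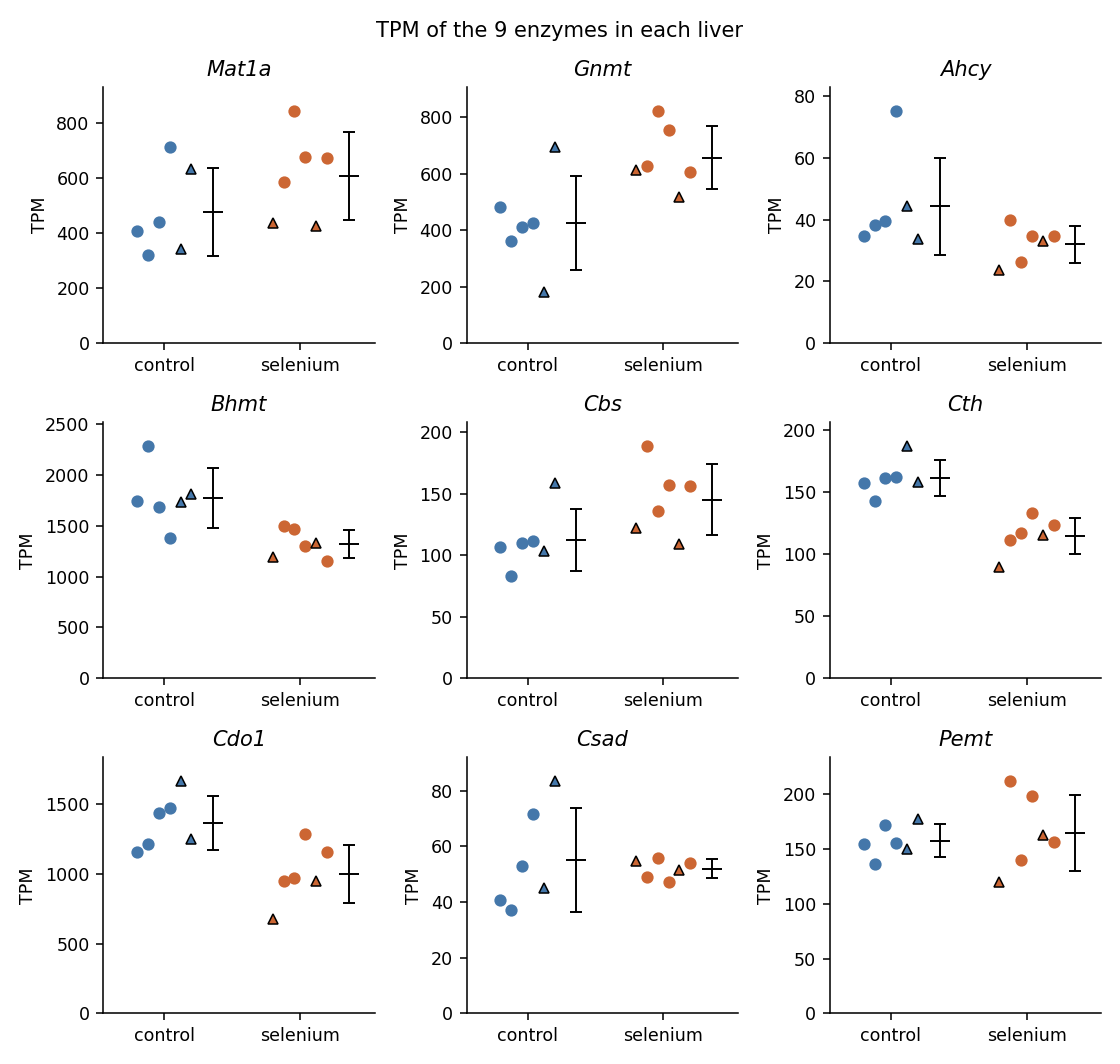
TPM of each enzyme (vertical axes, linear from 0) in the 6 control and 6 selenium livers; each point is 1 liver, triangles are the 4 livers with Dbp of at least 10 TPM, and the bars give mean and SD. The Cth points of the 2 groups do not overlap, while the Csad and Pemt points do.

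The 250 bases before the annotated start are printed for the enzymes with an unadjusted p under 0.05 that matched the promoter table, Gnmt and Cbs, which averaged higher with selenium, and Bhmt and Ahcy, which averaged lower. They are from RefSeq on GRCm38.p6, which is not the build of the expression files (GRCm39), and 6 of the 9 enzymes matched; Mat1a, Cth and Cdo1 did not. Capitals mark matches on either strand to an E-box (CACGTG), a D-box (TTATGNAA), a CCAAT box (CCAAT), a GC box (GGGCGG), a nuclear receptor half-site (AGGTCA), an antioxidant response element (TGACNNNGC) or a TATA box (TATAAA). No match overlapped another in these windows. All 4 lie on the minus strand and are written 5′ to 3′ in the direction of the gene, at chr17:46729166-46729415 (Gnmt), chr17:31637206-31637455 (Cbs), chr13:93637759-93638008 (Bhmt) and chr2:155074498-155074747 (Ahcy).
Gnmt: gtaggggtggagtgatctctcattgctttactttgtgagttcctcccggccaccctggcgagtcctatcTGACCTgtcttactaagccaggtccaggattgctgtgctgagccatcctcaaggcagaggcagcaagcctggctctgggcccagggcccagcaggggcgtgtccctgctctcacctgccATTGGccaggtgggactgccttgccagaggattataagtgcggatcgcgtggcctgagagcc
Cbs: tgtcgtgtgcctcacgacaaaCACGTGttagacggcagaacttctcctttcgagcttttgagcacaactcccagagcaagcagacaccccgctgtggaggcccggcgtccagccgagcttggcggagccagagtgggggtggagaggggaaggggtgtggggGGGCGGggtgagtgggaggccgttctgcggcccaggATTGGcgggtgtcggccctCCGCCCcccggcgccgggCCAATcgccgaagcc
Bhmt: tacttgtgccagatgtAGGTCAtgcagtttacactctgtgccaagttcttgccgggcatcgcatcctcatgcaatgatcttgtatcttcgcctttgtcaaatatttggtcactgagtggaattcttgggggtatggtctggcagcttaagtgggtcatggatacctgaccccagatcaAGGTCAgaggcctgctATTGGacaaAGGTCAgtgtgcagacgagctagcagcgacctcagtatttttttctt
Ahcy: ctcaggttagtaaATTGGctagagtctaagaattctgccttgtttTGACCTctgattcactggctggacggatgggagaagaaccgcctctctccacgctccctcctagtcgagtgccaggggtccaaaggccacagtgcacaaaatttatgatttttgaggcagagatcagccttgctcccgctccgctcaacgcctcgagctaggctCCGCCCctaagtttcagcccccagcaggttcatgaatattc

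A CCAAT box stood in all 4 windows, on the opposite strand 62, 52 and 56 bases before the start in Gnmt, Cbs and Bhmt and 237 bases before it in Ahcy, and Cbs held another on its own strand. Among 32851 promoter windows of the same length, 33.8% held this motif. The half-site AGGTCA was present 3 times in Bhmt and once each in Gnmt and Ahcy, against 14.0% of all windows with at least 1. Only Cbs of the 4 held an E-box, at 229 bases before the start, a motif of 6.02% of all windows, and Cbs and Ahcy held a GC box (32.7%). The D-box (3.07% of all windows), the antioxidant response element (10.2%) and the TATA box (12.4%) had no match in these 4 windows.

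Mat1a (ENSMUSG00000037798) encodes the methionine adenosyltransferase of adult liver, which makes S-adenosylmethionine. Control livers held 319, 423 and 712 TPM (lowest, median and highest) and selenium livers 425, 628 and 844 TPM. The groups overlapped over most of their range. Mat1a averaged 0.37 higher on the log2 scale (95% interval -0.11 to 0.85), and limma's adjusted p was 0.403. Among the 8 livers with low Dbp the change was 0.61 (adjusted p = 0.169 by limma), and in the 4 with high Dbp, 2 per group, the difference was -0.11.

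Gnmt (ENSMUSG00000002769) encodes glycine N-methyltransferase, which spends S-adenosylmethionine on glycine and so sets the ratio of methyl donor to its product in liver. Its values were 182, 419 and 695 TPM in controls and 517, 622 and 825 TPM with selenium. All 6 selenium livers lay above the control mean, and 5 of 6 controls lay below the lowest selenium liver, control 6 being the exception. The log2 change of 0.71 (SE 0.25, interval 0.18 to 1.24) had an unadjusted p of 0.0121 and an adjusted p of 0.162 in limma. Both ends of the control range came from livers with high Dbp, control 5 with the lowest and control 6 with the highest value. Without control 5 the change was 0.49, and without control 6 it was 0.87 (adjusted p = 0.0596 by limma). Among the 8 livers with low Dbp the groups did not overlap, at 362 to 484 TPM against 607 to 825 TPM, with a change of 0.74 and limma's adjusted p at 0.0637. The authors' deposited table gives a change of 0.71 with an adjusted p of 0.0250.

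Pemt (ENSMUSG00000000301), phosphatidylethanolamine N-methyltransferase, uses S-adenosylmethionine to make phosphatidylcholine. Control livers held 136, 155 and 178 TPM and selenium livers 120, 159 and 212 TPM. Selenium livers held both the highest and the lowest values, with 3 of 6 above the control mean. Its log2 change was 0.04 (interval -0.26 to 0.35, limma adjusted p = 0.902), and its sign turned with the scaling: it was -0.05 with TPM rescaled without mitochondrial-encoded genes. The 8 livers with low Dbp gave 0.18 (limma adjusted p = 0.558).

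Ahcy (ENSMUSG00000027597) encodes the hydrolase that splits S-adenosylhomocysteine, the product of methyl transfer, into adenosine and homocysteine. Its values were 33.6, 39.0 and 75.3 TPM in controls and 23.6, 33.9 and 40.0 TPM with selenium. Control 4 stood alone at 75.3 TPM, and the next control was at 44.3 TPM. The difference on the log2 scale was -0.42 (SE 0.19, unadjusted p = 0.0440, adjusted p = 0.257, limma). Without control 4 it was -0.26, with an unadjusted p of 0.0980 and an adjusted p of 0.385 in limma. The 8 livers with low Dbp, control 4 included, gave -0.40 (limma adjusted p = 0.353).

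Bhmt (ENSMUSG00000074768), betaine-homocysteine methyltransferase, returns homocysteine to methionine with betaine as the methyl donor. The most abundant of the 9, it was at 1379, 1737 and 2287 TPM in the control livers and 1157, 1313 and 1498 TPM in the selenium livers. In 5 of 6 controls it lay above the highest selenium liver, and control 4 was the lowest control. Bhmt had a log2 change of -0.41 (SE 0.13, interval -0.69 to -0.13), with an unadjusted p of 0.00737 and an adjusted p of 0.139 in limma. The exact permutation p was 0.00649 (n = 6 per group), or 0.169 adjusted over all tested genes. In the 8 livers with low Dbp the change was -0.37, with an unadjusted p of 0.0592 and an adjusted p of 0.252 in limma.

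Cbs (ENSMUSG00000024039), cystathionine beta-synthase, takes the first step of transsulfuration by joining homocysteine and serine. Its values were 83.2, 109 and 159 TPM in controls and 109, 147 and 189 TPM with selenium. Control 6 was the highest control, inside the selenium range, and 3 of 6 controls lay below every selenium liver. Cbs had a log2 change of 0.37 (SE 0.16, interval 0.02 to 0.72, unadjusted p = 0.0391, adjusted p = 0.244, limma). Among the 8 livers with low Dbp it was 0.63 (limma adjusted p = 0.0773) with no overlap between the groups, at 83.2 to 112 TPM against 136 to 189 TPM. In the 4 livers with high Dbp the difference was -0.15, at 103 and 159 TPM in controls and 109 and 123 TPM with selenium. Whether the difference itself depends on Dbp was not tested.

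Cth (ENSMUSG00000028179), cystathionine gamma-lyase, releases cysteine from cystathionine and also acts on the selenium analogue. It had the smallest p of the 9. Its values were 143, 160 and 188 TPM in controls and 89.7, 116 and 133 TPM with selenium. Every selenium liver lay below every control liver. The log2 change was -0.49 (SE 0.11, interval -0.74 to -0.25), with an unadjusted p of 6.39e-04 and an adjusted p of 0.0671 in limma; 0.922% of tested genes had a smaller p. In the 8 livers with low Dbp the groups again did not overlap (143 to 163 TPM against 112 to 133 TPM), with a smaller change of -0.36 and an adjusted p of 0.120 in limma. The adjusted p over all 12 livers was 0.0671 as given, 0.0560 to 0.120 with 1 library left out, and 0.0332 with TPM rescaled without mitochondrial-encoded genes, where Cth was the 1 member past the threshold beside 1.85% of the genes tested. In that setting Cth changed by -0.59 and the median change of all genes tested was -0.11, with 6 genes passing as higher and 185 as lower. With median-of-ratios scaling, where that median was 0.04, Cth changed by -0.41 (limma adjusted p = 0.065). The exact permutation p was 0.00217 (n = 6 per group), the smallest this design allows, and its adjusted value was 0.133. The authors' deposited table gives a change of -0.31 with an adjusted p of 0.0448.

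Cdo1 (ENSMUSG00000033022), cysteine dioxygenase, oxidises cysteine to cysteine sulfinate and so starts the path to taurine and sulfate. Control livers held 1158, 1342 and 1668 TPM of it and selenium livers 675, 959 and 1283 TPM. All 6 selenium livers lay below the control mean and 4 of them below the lowest control. Cdo1 had a log2 change of -0.47 (SE 0.16, interval -0.81 to -0.14, unadjusted p = 0.00929, adjusted p = 0.148, limma). Among the 8 livers with low Dbp it was -0.28, with an unadjusted p of 0.0956 and an adjusted p of 0.319 in limma. In the 4 with high Dbp the difference was -0.85.

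Csad (ENSMUSG00000023044), cysteine sulfinic acid decarboxylase, takes the product of Cdo1 on towards taurine. Control livers held 37.1, 49.0 and 83.6 TPM and selenium livers 47.1, 52.9 and 55.7 TPM, so that the selenium livers lay inside the control range. Csad had a log2 change of -0.02 (interval -0.41 to 0.36, limma adjusted p = 0.964), and it was 0.06 with median-of-ratios scaling and 0.07 among the 8 livers with low Dbp. Among the 8 livers with low Dbp, 3 of the 9 enzymes (Gnmt, Cbs and Cth) had groups that did not overlap, beside 14.9% of all tested genes, and 0 passed limma's adjusted threshold, beside 0.471% of all. In the 4 livers with high Dbp, the differences not given above were 0.66 for Gnmt, -0.76 for Cth, -0.49 for Bhmt and -0.45 for Ahcy. Those of Pemt and Csad were -0.22 and -0.21. All differences in these 4 livers rest on 2 livers per group and were not tested.

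**Figure D2:**
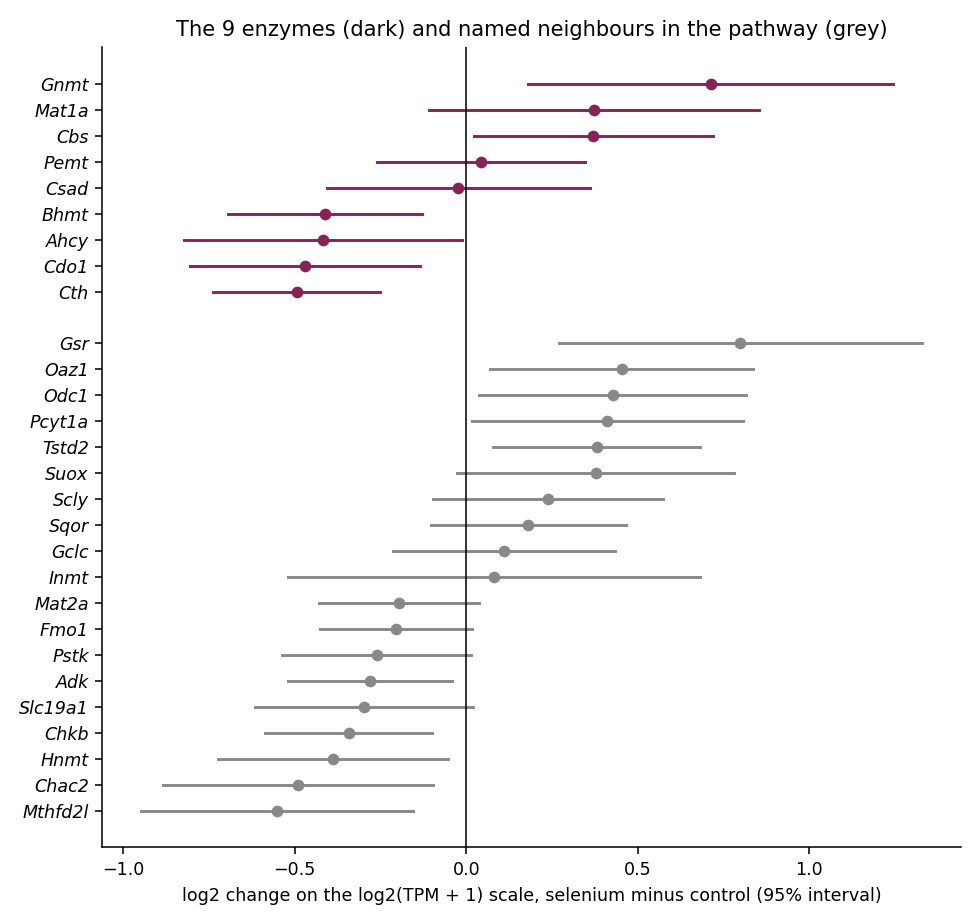
Log2 change, selenium minus control, on the log2(TPM + 1) scale with its 95% interval for the 9 enzymes (dark, top) and for the named genes of neighbouring steps (grey, bottom). Gnmt (0.71) and Cth (-0.49) are the highest and the lowest of the 9, and the intervals of Mat1a, Pemt and Csad include 0.

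Ratios of enzymes within a liver do not depend on a constant scaling of the library. They were chosen after the values were seen and are given without a test. Of 10 ratios computed, the groups were apart for 1, Gnmt to Bhmt, and overlapped for 9, among them Mat1a to Ahcy, Gnmt to Ahcy and Cbs to Cdo1. The ratio of Gnmt, which uses S-adenosylmethionine, to Bhmt, which remakes methionine, was 0.246 ± 0.101 in controls (0.105 to 0.383) and 0.499 ± 0.0773 with selenium (0.390 to 0.581). The lowest selenium liver, number 5, lay just above the highest control, number 6, and both had high Dbp. The ratio of Cbs to Cth, the first and second enzymes of transsulfuration, was 0.697 ± 0.159 in controls (0.551 to 1.00) and 1.27 ± 0.249 with selenium (0.944 to 1.69). Control 6 at 1.00 lay above selenium 5 at 0.944, and the other livers of the groups were apart. The ratio of Cth to Cdo1 was 0.119 ± 0.0100 in controls and 0.117 ± 0.0108 with selenium, with overlapping ranges of 0.110 to 0.136 and 0.104 to 0.133.

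Across the 12 livers, Cth and Cdo1 tracked each other, the enzyme that releases cysteine and the enzyme that oxidises it. On log2(TPM + 1), Pearson's r was 0.94 (permutation p = 1e-05, the smallest that 100000 resamples can give, adjusted p = 3.60e-04 over the 36 pairs of enzymes) and Spearman's rho was 0.92 (permutation p = 4.00e-05, adjusted p = 0.00144). Without the 2 livers farthest from the median of Cth, r was 0.86. It was 0.83 within the controls and 0.98 within the selenium group, and 0.94 with each group's mean removed. Among the 8 livers with low Dbp it was 0.85 (n = 8, exact permutation p = 0.00848), which did not pass over the 36 pairs there (adjusted p = 0.153). With median-of-ratios scaling r was 0.92.

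**Figure D3:**
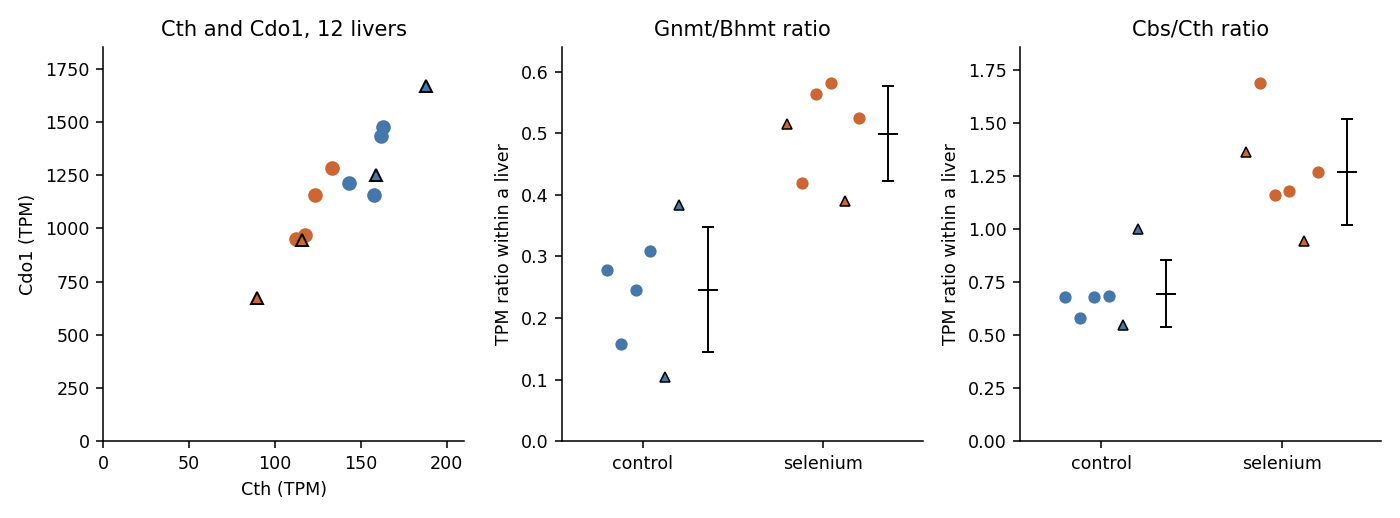
Left, Cdo1 against Cth in TPM, 1 point per liver (blue control, orange selenium, triangles for Dbp of at least 10 TPM); centre and right, the Gnmt to Bhmt and Cbs to Cth ratios in each liver with mean and SD. The 12 Cth and Cdo1 points lie along a line. The selenium livers are lower in Cth without overlap and lower on average in Cdo1, where the groups overlap. The Gnmt to Bhmt ratios of the groups do not overlap.

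Of the other 35 pairs, none passed for r with TPM as deposited. With median-of-ratios scaling 4 of them passed, Mat1a with Gnmt (r = 0.71, adjusted p = 0.0449), Mat1a with Bhmt (-0.78, adjusted p = 0.0323), Gnmt with Cth (-0.78, adjusted p = 0.0323) and Gnmt with Cdo1 (-0.75, adjusted p = 0.0449), all by permutation. Of these 4, Mat1a with Bhmt passed for rho there too (-0.78, permutation adjusted p = 0.0475). As deposited, the last 3 gave r = -0.53, -0.63 and -0.59 (permutation adjusted p = 0.228, 0.122 and 0.158). With each group's mean removed, r of these 3 pairs was -0.34, -0.23 and -0.27. Their signs differed between the groups, with r at -0.70, -0.62 and -0.71 within the controls and 0.32, 0.31 and 0.30 within the selenium group. Gnmt and Cbs passed for rho (0.83, permutation p = 0.00151, adjusted p = 0.0272), with r at 0.67 (adjusted p = 0.0980), 0.69 without the 2 livers farthest from the median of Gnmt and 0.49 with each group's mean removed. Mat1a gave r = 0.72 with Gnmt and 0.72 with Cbs (permutation p = 0.00489 and 0.00977, adjusted p = 0.0880 and 0.0980), 0.64 and 0.68 without the 2 livers farthest from the median of Mat1a, and rho = 0.69 and 0.72 (permutation p = 0.0170 and 0.0102, adjusted p = 0.108 for each).

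The genes whose pattern over the 12 livers was most like each enzyme were sought among 9204 tested genes with a proper symbol, by Pearson's r of log2(TPM + 1), as a description. For Cdo1 the nearest was Cth (r = 0.94), followed by Adk (0.94), the kinase that clears the adenosine released by Ahcy. For Cth the nearest was Nfkbia (0.95), the inhibitor of NF-kappaB, which fell with selenium from 24.4 ± 2.86 to 14.3 ± 2.76 TPM (limma adjusted p = 0.0365), then Cdo1. The likeness to Nfkbia was 0.78 with each group's mean removed, that to Cdo1 0.94. Gnmt was nearest to Mipep (0.99), a mitochondrial presequence peptidase at 4.99 ± 1.40 TPM (control) and 6.76 ± 0.810 TPM (selenium), and to Acad10 (0.98), of the acyl-CoA dehydrogenase family. Mat1a was nearest to the phosphate transporter gene Slc17a1 (0.95) and to Por (0.95), the electron donor of cytochromes P450. Cbs was nearest to Yars (0.94), a tyrosyl-tRNA synthetase, and Aamp (0.94). Bhmt was nearest to Klhdc8b (0.94) and to Prkab1 (0.90), a subunit of AMP-activated kinase, with r at 0.85 and 0.76 with each group's mean removed. Klhdc8b was low, at 2.50 ± 0.85 TPM (control) and 1.07 ± 0.28 TPM (selenium), near the filter of 1 TPM. Pemt was nearest to Prxl2b and the proteasome assembly gene Psmg3 (0.96 each), Ahcy to Phax (0.92) and Pam16 (0.91), and Csad to Gemin2 (0.92) and Epas1 (0.92). These genes share libraries and scaling with the enzymes they were matched to.

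The neighbouring steps were read from 8 lists of 94 genes, 83 of them tested. Of the 83, 0 passed limma's adjusted threshold, beside 0.331% of all tested genes. An unadjusted p under 0.05 was found for 12, or 14.5%, 6 higher and 6 lower, beside 18.5% of all tested genes, the share against which the counts of each list below stand. Their median log2 change was 0.01. In the same fit with the first 2 clock components as covariates, 2 passed, beside 1.83% of all genes: Gsr, which reduces oxidised glutathione, at 0.97 (adjusted p = 0.0494), and Oplah, a 5-oxoprolinase of the glutathione cycle named after its value was seen, at 0.65 (adjusted p = 0.0471).

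Among 15 tested genes of methyl transfer and the methionine cycle, 0 were higher and 2 lower at an unadjusted p under 0.05, Adk (400 ± 28.7 and 331 ± 42.3 TPM, control and selenium) and the histamine methyltransferase Hnmt (10.5 ± 1.44 and 7.91 ± 1.85 TPM). Mat2a, the methionine adenosyltransferase used outside adult liver, stood at 42.3 ± 3.87 and 36.9 ± 4.45 TPM, a log2 change of -0.20 (limma adjusted p = 0.362), at levels far under those of Mat1a. Inmt, a methyltransferase of small amines that also methylates selenium compounds, was at 172 ± 76.7 and 183 ± 71.9 TPM. Methionine synthase Mtr and its reductase Mtrr, the folate-linked way back from homocysteine, stayed below the filter.

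In choline and betaine metabolism, which supplies the betaine used by Bhmt, 1 of 9 genes was higher and 1 lower at an unadjusted p under 0.05. Pcyt1a, of phosphatidylcholine synthesis, stood at 6.85 ± 1.39 and 9.68 ± 3.28 TPM, and the choline kinase Chkb at 23.2 ± 2.75 and 18.1 ± 2.33 TPM. Of 14 tested folate genes, 0 were higher and 1 lower, Mthfd2l at 3.44 ± 1.21 and 2.00 ± 0.580 TPM, and the reduced folate carrier Slc19a1 was at 2.04 ± 0.774 and 1.42 ± 0.186 TPM. Of 13 genes of methionine salvage and polyamines, 2 were higher and 1 lower, with the ornithine decarboxylase gene Odc1 at 8.32 ± 2.34 and 11.5 ± 2.90 TPM and Oaz1, the antizyme that restrains it, at 81.9 ± 24.4 and 110 ± 15.9 TPM. The lower gene was Sat1, at 54.9 ± 7.08 and 43.2 ± 10.9 TPM.

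Downstream of cysteine, none of 8 tested genes of cysteine oxidation and taurine had an unadjusted p under 0.05, the smallest being those of the sulfite oxidase Suox (22.3 ± 6.99 and 28.1 ± 2.88 TPM) and of Fmo1 (76.6 ± 4.38 and 66.6 ± 7.88 TPM), which oxidises hypotaurine. Of 8 genes of hydrogen sulfide and sulfur transfer, 1 was higher, Tstd2, with a rhodanese domain, at 2.29 ± 0.498 and 3.28 ± 0.684 TPM, while the sulfide quinone oxidoreductase Sqor was at 52.9 ± 9.02 and 59.7 ± 7.44 TPM. Of 11 tested glutathione genes, 2 were higher and 1 lower, or 27.3% beside 18.5% of all. Gsr stood at 11.4 ± 3.94 and 20.8 ± 7.29 TPM, a log2 change of 0.80 (SE 0.25, limma adjusted p = 0.129), and Chac2, which degrades glutathione, at 27.2 ± 6.28 and 19.2 ± 4.87 TPM. Gclc, the catalytic subunit of the first enzyme of glutathione synthesis, was at 70.8 ± 14.4 and 75.9 ± 11.2 TPM.

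For the 7 genes that release, activate or methylate selenium, 0 had an unadjusted p under 0.05. Scly, the lyase that frees selenium from the selenocysteine that transsulfuration yields, stood at 23.2 ± 2.75 and 28.1 ± 7.45 TPM, a log2 change of 0.24 (interval -0.10 to 0.57, limma adjusted p = 0.439). It was 0.13 without selenium 2, and 0.43 among the 8 livers with low Dbp, with an unadjusted p of 0.0188 and an adjusted p of 0.154 in limma. Pstk, the kinase of the selenocysteine tRNA path, was at 7.57 ± 1.13 and 6.17 ± 1.06 TPM (log2 change -0.26, limma adjusted p = 0.300), and its change among the 8 livers with low Dbp was -0.14. Position along the liver lobule was read from marker lists, since these enzymes are not spread evenly across it. Of 8 periportal markers, 2 were lower (Gls2 and Arg1) and 1 higher (Cyp2f2) at an unadjusted p under 0.05, or 37.5% beside 18.5% of all tested genes (11.4% lower and 7.01% higher), with a median log2 change of -0.33, and of 6 pericentral markers 0 were, with a median of 0.06. None passed the adjusted threshold in limma, and the part of zonation in the enzymes' values was not tested.

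**Figure D4:**
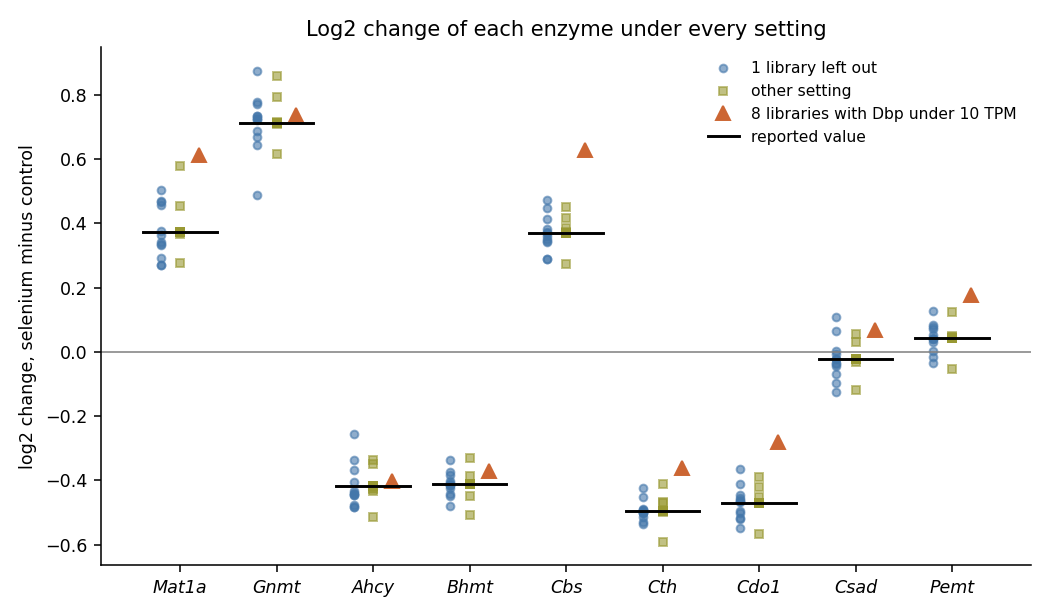
Log2 change of each enzyme, selenium minus control, as reported (black lines), with 1 library left out (circles), under the other settings (squares) and in the 8 livers with Dbp under 10 TPM (triangles). The signs of Mat1a, Gnmt, Ahcy, Bhmt, Cbs, Cth and Cdo1 were the same under every setting, while those of Csad and Pemt were not.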

How the data were processed

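The build was GRCm39, and the tools named were RSEM 1.2.8, HISAT2 2.1.0 and DESeq2 (from the submitters' processing notes); the role of each, the annotation and strand use are not given in the sources used here. The authors deposited TPM per gene and library, and 100% of values were equal in the series and single-library tables. The authors' deposited log2 fold changes, turned here to selenium minus control, and their p-values are quoted as theirs. Since TPM are not counts, limma 3.58.1 in R 4.3.3 was fitted to log2(TPM + 1), with an intensity trend, no covariates, two-sided, on genes with at least 1 TPM in 6 or more of the 12 libraries; the pseudocount of 1 understates the change of low genes. Benjamini-Hochberg adjustment ran over all 9980 genes tested. Exact permutation tests, two-sided, used all 924 labellings. The fit was also run on simulated data with independent noise for each gene. Such data lack any spread shared between genes, and the outcome is not given here.

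The enzymes, gene lists and alternatives were chosen with earlier results of these data known. Named genes were the 9 enzymes, the 2 most alike genes for each, the 2 with the smallest p of each list, any past the threshold, and Mat2a, Scly, Inmt, Gclc and Dbp. Alb, Mup9, mt-Atp8, Spp1, Mtr, Mtrr, Oplah, Sat1, Gls2, Arg1 and Cyp2f2 were named after their values were seen. A gene of the rule is not reported here. Alternatives were pseudocounts of 0.1 and 0.5, no filter or 5 TPM, median-of-ratios and quantile scaling, TPM without mitochondrial-encoded genes, no trend, robust empirical Bayes, exact permutation, a replicate block, leaving out each library, 2 clock components as covariates, and only the 8 libraries with Dbp under 10 TPM. The clock components came from the 12 of 16 clock genes that passed the filter. Replicates are samples labelled as separate, and p-values measure the spread between them.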

Additional observations from a re-analysis of the deposited data

Results flagged for a closer look

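In 56 groups of 6 livers, for the enzymes and the named genes of neighbouring steps, the gap of the highest or lowest liver to the next was set against the whole range, and 4 groups exceeded Dixon's 95% critical value; chance alone flags about 5% of groups. Ahcy in control 4, at 75.3 TPM, was far above the other controls, with a gap of 0.743 of the range. Hnmt in selenium 2 was far below the other selenium livers (4.42 TPM, gap 0.650 of the range). Tstd2 in control 5 was far below the other controls (1.30 TPM, gap 0.800), and Inmt in control 6 was far above them (323 TPM, gap 0.741).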

How the results depend on the processing

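The number of enzymes past the threshold was 0 in limma and 0 in 24 of 25 other settings, including all 12 that left out a library. Exact permutation was among the 24, and its smallest possible p adjusted to 0.133. The number was 1 (Cth) with TPM rescaled without mitochondrial-encoded genes. For the genes of neighbouring steps it was 0, and 2 with the clock components as covariates. For the enzymes, the fit with clock components gave 0.58 for Mat1a and -0.47 for Cth (limma adjusted p = 0.0594 for each). It gave 0.86 for Gnmt and -0.45 for Bhmt (limma adjusted p = 0.0667 and 0.0797). For the remaining enzymes limma's adjusted p in that fit was 0.146 to 0.914. Over all tested genes 33 passed, 2 higher and 31 lower, and 52 higher and 38 lower with median-of-ratios scaling. This count was 1 without a filter, 90 with median-of-ratios scaling, 12 with quantile normalization, 191 without mitochondrial-encoded genes, 56 with robust empirical Bayes, 0 by exact permutation and 183 with the clock components; with 1 library left out it ran from 7 (control 2) to 171 (control 6), and was within 1.5 times 33 only without control 3 or selenium 6. With the replicate number as a block it was 3, and 0 of the enzymes passed. Deviations of livers with the same number correlated at -0.14 to 0.11, and 1 of 6 controls correlated best with its own number, so the numbers were not taken to pair the mice. Of the 36 pairs of enzymes, 1 passed for r, 5 with median-of-ratios scaling and 0 in the 8 livers with low Dbp, which are fewer.

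The log2 change of Pemt (0.04) was -0.054 without mitochondrial-encoded genes and -0.035 (without selenium 2) to 0.13 with 1 library left out. That of Csad (-0.02) was 0.057 with median-of-ratios scaling, 0.031 with the clock components, 0.067 in the 8 livers with low Dbp, and -0.12 to 0.11 (without control 6) with 1 library left out. That of Inmt (0.08) was -0.016 without mitochondrial-encoded genes, -0.062 with the clock components, and -0.073 (without selenium 5) to 0.28 with 1 library left out. The causes were not tested. TPM hold no depth, so counting error could not be given.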

Other observations

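The enzymes differed in how much they varied between mice of a group. The SD within groups, on log2(TPM + 1), was 0.48 for Gnmt, 0.43 for Mat1a, 0.35 for Ahcy and 0.33 for Csad, and 0.16 for Cth and 0.20 for Bhmt, while the median over the 1348 tested genes in the same range of mean TPM was 0.27. Single livers carried part of this: the SD of Gnmt was 0.30 without control 5 and that of Ahcy 0.23 without control 4, while that of Mat1a was 0.39 to 0.45 with 1 liver left out. For Csad the SD was 18.6 TPM among the controls (13.8 TPM without control 6) and 3.39 TPM among the selenium livers. Controls 4 and 6, at 71.8 and 83.6 TPM, held the upper part of the control range of 37.1 to 83.6 TPM, and the selenium livers spanned 47.1 to 55.7 TPM. Pemt had the larger SD with selenium (34.9 against 15.2 TPM, and 29.0 TPM without selenium 2). These spreads were noticed in the data and were not tested.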
